A study of Mus musculus with 21 samples.

Results

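Transcripts of 10 glutathione transferases, Gstp1, Gstp2, Gstm1, Gstm2, Gstm4, Gstm5, Gsta4, Gstt1, Gstk1 and Gsto1, were followed in the gastrocnemius muscle of mice that trained, stopped training or stayed inactive. They were taken by symbol from the 40853 genes of the count table. All 10 were among the 16129 genes that passed the filter on low counts. The 10 were chosen by their measured levels, since their normalized counts in these training groups were already known, so the group comparisons below are descriptions and carry no test of a member.

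The medial gastrocnemius belly of each of 21 female C57BL/6NJ mice, 7 per group, gave 1 poly(A) library. Mice were 10 weeks old at the start. The Inactive group did not train, the Active group ran on a treadmill for 6 weeks, and the Activity Reduction group ran for 4 weeks and was then inactive for 2 weeks. Mice of all groups, Inactive mice included, ran maximal running tests, the last 2 to 3 days before harvest, and were fasted. The comparisons address whether training moves a transcript and whether stopping returns it.

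Glutathione transferases join the tripeptide glutathione to electrophilic compounds, including products of lipid peroxidation, and some reduce peroxides. The soluble enzymes fall into classes, of which the pi (Gstp), mu (Gstm), alpha (Gsta), theta (Gstt) and omega (Gsto) classes share a fold, whereas the kappa class (Gstk1) is of a separate lineage found in mitochondria and peroxisomes. Many of their genes can be induced by the transcription factor NRF2, which KEAP1 restrains.

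Gstp1 (GRCm39, chr19:4085405-4088068, minus strand) and Gstp2 (chr19:4090285-4096023, minus strand) lie 2216 bases apart, with Gstp3 (chr19:4106035-4109569, minus strand) beyond them. Their coding sequences, 630 bases each in the canonical GENCODE transcripts, differ at 12 positions, with an identity of 98.1%. The encoded proteins differ at 6 of 210 residues. The first 90 coding bases, which hold 6 of the 12 differences, are shown because no other 90 coding bases hold more. These differences are among those by which reads of the pair can be told apart. Capitals mark the bases that differ:
Gstp1: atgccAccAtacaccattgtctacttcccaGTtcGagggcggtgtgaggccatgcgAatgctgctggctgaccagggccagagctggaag
Gstp2: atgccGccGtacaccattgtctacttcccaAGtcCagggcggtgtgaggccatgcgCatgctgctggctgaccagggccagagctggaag
The longest run without a difference spans 300 coding bases. Of all 100-base stretches of the canonical Gstp2 transcript, 53.8% occur unchanged in a Gstp1 transcript and 38.4% in the pseudogene Gstp-ps (chr1:191758120-191758750, minus strand). Of those of Gstp1, 47.3% occur in Gstp2. How reads that match several genes were counted is not given in the sources used here, so the division of counts between Gstp1 and Gstp2 is uncertain.

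The pair also shares sequence at its start. The 250 bases before the RefSeq start of each gene (RefSeq, GRCm38.p6, each found once on chromosome 19 of GRCm39) were 78.1% identical, and both held the same 30 bases. They are shown because they contain, in capitals, the single element of the form TGAGNNNGC that both promoters hold on the coding strand:
Gstp1 and Gstp2: ctccaacgtgtTGAGTCAGCatccggggcg
The element began 74 bases before the RefSeq start of Gstp1 (stretch at chr19:4087968-4087997) and 89 bases before that of Gstp2 (chr19:4092292-4092321). The Gstp1 stretch lies downstream of the start of the canonical GENCODE transcript (chr19:4088068). The Gstp2 stretch lies upstream of the canonical start (chr19:4092273), though within the span of the gene given above. On either strand, TGAGNNNGC occurred in 14.4% of 32851 RefSeq promoters of that length, and TGANTCA, which overlaps it here, in 6.75%. The form TGACNNNGC, in 10.2% of promoters, was found in neither Gstp promoter. Among the 9 members with a promoter in the table, GGGCGG (32.7% of promoters) was found in those of Gstp1, Gstp2, Gstm4, Gstm5, Gstk1 and Gsto1. Of the members outside the pair, Gstt1 and Gstm5 (on the other strand) also held TGAGNNNGC, and so did Gstp3. Gstm5 held TGACNNNGC and TGANTCA as well. TGAGNNNGC was picked after these promoters were seen, and a match of letters is not a binding site.

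Library totals ran from 38482455 to 59785132 gene counts, with those of Active mice (at most 49211581) all below those of Inactive mice (at least 49284630). The 7 muscle markers (Acta1, Ckm, Myh4, Myh1, Mylpf, Tnnt3 and Mb) together held between 129680.1 and 161381 CPM (each library scaled to the same total) in every library, and none of the 7 was at 0. Transcripts of 24 liver genes were present as well. Their summed level was 859 to 2519 CPM in the 8 libraries with the lowest mouse numbers (Active replicates 1 to 5, Activity Reduction replicates 1 and 2 and Inactive replicate 1) and 197 to 397 CPM in the other 13. The place of this division was chosen with liver transcripts known. Results are therefore also given with these sets of mouse numbers as a covariate, and within the 13 libraries, which hold 6 Inactive, 2 Active and 5 Activity Reduction mice. In bulk tissue, fewer cells of a type and less RNA per cell cannot be told apart.

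Levels are given as normalized counts (counts divided by a size factor per library). Scaled to the length of the canonical transcript, Gstp1 was the highest of the 10, with a mean of 5485 ± 412 normalized counts per kb (SD, n = 21 libraries). Gstm1 followed at 3897 ± 341 and Gstm2 at 3185 ± 219.9. Gstp2 came next at 2223 ± 343, then Gstm5 at 1777 ± 144 and Gstk1 at 1469 ± 75.1. The lower members were Gsto1 at 783 ± 43.7, Gstm4 at 387 ± 33.0, Gsta4 at 283 ± 21.3 and Gstt1 at 135 ± 48.7. Neighbors in this order kept their places in 21 of 21 libraries, except that Gstp2 exceeded Gstm5 in 20. The order was the same with all exons of each gene in place of the canonical transcript. Gstt1 was at once the lowest and the most variable member.

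**Figure D1:**
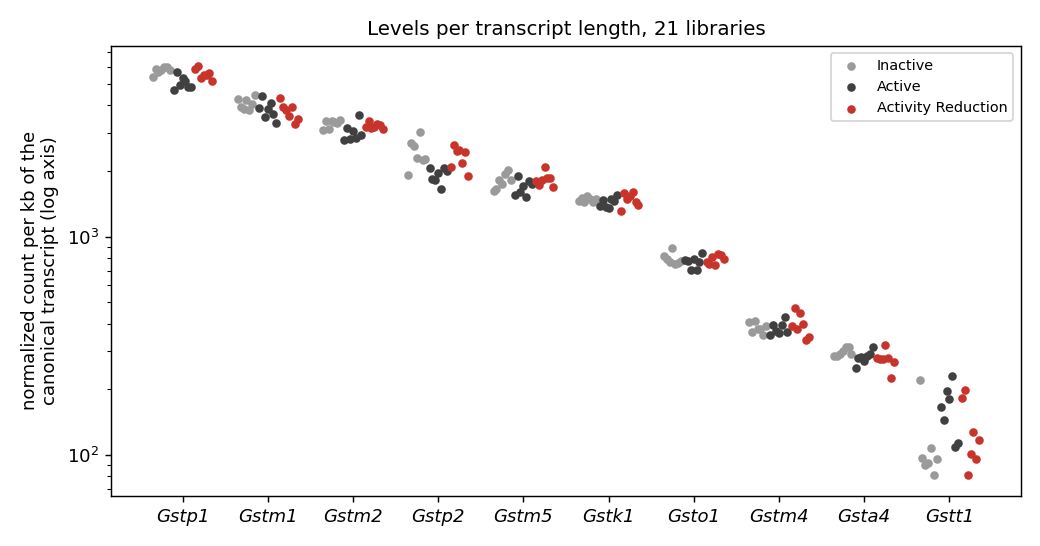
Normalized counts per kb of the canonical transcript (log axis) for the 10 genes, with 1 point per library in 3 groups of 7. The means fall from 5485 for Gstp1 to 135 for Gstt1, which also has the widest spread on this axis.

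Over the 21 libraries, the pi-class transcripts had lower means in Active than in Inactive mice. Activity Reduction means lay between the other 2, nearer to the Inactive one. Within the 13 later libraries, however, all 5 Activity Reduction values of Gstp1 were below the 6 Inactive ones (given below). Pi-class enzymes conjugate electrophiles and also bind stress kinases. Gstp1 ranged from 4858 to 5423 normalized counts in Inactive mice (median 5285), from 4249.5 to 5129 in Active mice (median 4476) and from 4662 to 5463 in Activity Reduction mice (median 5000.2). In all, 6 of the 7 Active libraries were below the lowest Inactive one, while Active replicate 2 was among the Inactive values.

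The mean of Gstp1 was 5242 ± 194 (SD, n = 7) in the Inactive, 4594 ± 308.2 in the Active and 5040.1 ± 272 in the Activity Reduction group. The fitted log2 fold change was −0.18 (SE 0.04) for Active against Inactive, −0.05 (SE 0.04) for Activity Reduction against Inactive and 0.13 (SE 0.04) for Activity Reduction against Active. Active mice therefore had a mean 12.4% below that of Inactive mice. These 3 comparisons share their groups and are not independent of each other.

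Gstp2 showed the larger difference of the pair. It ranged from 1552 to 2428 in Inactive mice (median 1859.6), from 1341 to 1672 in Active mice (median 1579.6) and from 1534 to 2136 in Activity Reduction mice (median 1969). The lowest Inactive library, replicate 1, lay within the Active range, and the other 6 Inactive libraries were above all 7 Active ones. In the Activity Reduction group, 6 libraries were above the highest Active library and replicate 7 was not.

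Mean Gstp2 was 1965 ± 287 (SD, n = 7) in the Inactive, 1547 ± 122 in the Active and 1870.3 ± 215 in the Activity Reduction group, so that the Active mean was 21.3% lower than the Inactive one. Its log2 fold changes were −0.34 (SE 0.08), −0.07 (SE 0.08) and 0.27 (SE 0.08) for Active against Inactive, Activity Reduction against Inactive and Activity Reduction against Active. The second of these, smaller than its SE, was −0.01 without Inactive replicate 5, −0.03 without Activity Reduction replicate 7, −0.10 without Activity Reduction replicate 2 and −0.12 without Inactive replicate 1.

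With the mouse-number set as a covariate, the log2 fold change for Active against Inactive was −0.22 (SE 0.05) for Gstp1 and −0.27 (SE 0.09) for Gstp2. Within the 13 later libraries, Gstp1 was 4383 and 4398 in the 2 Active mice and 5144 to 5423 in the 6 Inactive mice. Gstp2 was 1672 and 1611 in those Active mice and 1819 to 2428 in those Inactive mice. Neither gene overlapped between these groups, which is a description of 2 mice against 6. The same held for 4 of the 10 members, with Gstm1 also lower and Gstt1 higher in the Active mice. How many of all genes separate in this way was not counted. Among the 8 libraries with the lowest mouse numbers, the 1 Inactive mouse held 4858 of Gstp1 and 1552 of Gstp2, which lay within the Active ranges of 4249.5 to 5129 and 1341 to 1672 (5 mice). The 2 Activity Reduction mice there were above it, with means of 5376 and 1911. Within the 13 later libraries, the 5 Activity Reduction mice held 4662 to 5075 of Gstp1, below all 6 Inactive and above both Active mice. Their mean was 4906, against 4391 in Active and 5306 in Inactive mice. Gstp2, at 1534 to 2021 in these Activity Reduction mice, overlapped both other groups. In the fit of the 13 libraries, the log2 fold change for Activity Reduction against Inactive was −0.11 for Gstp1 and −0.14 for Gstp2. For Activity Reduction against Active that of Gstp2 was 0.17.

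**Figure D2:**
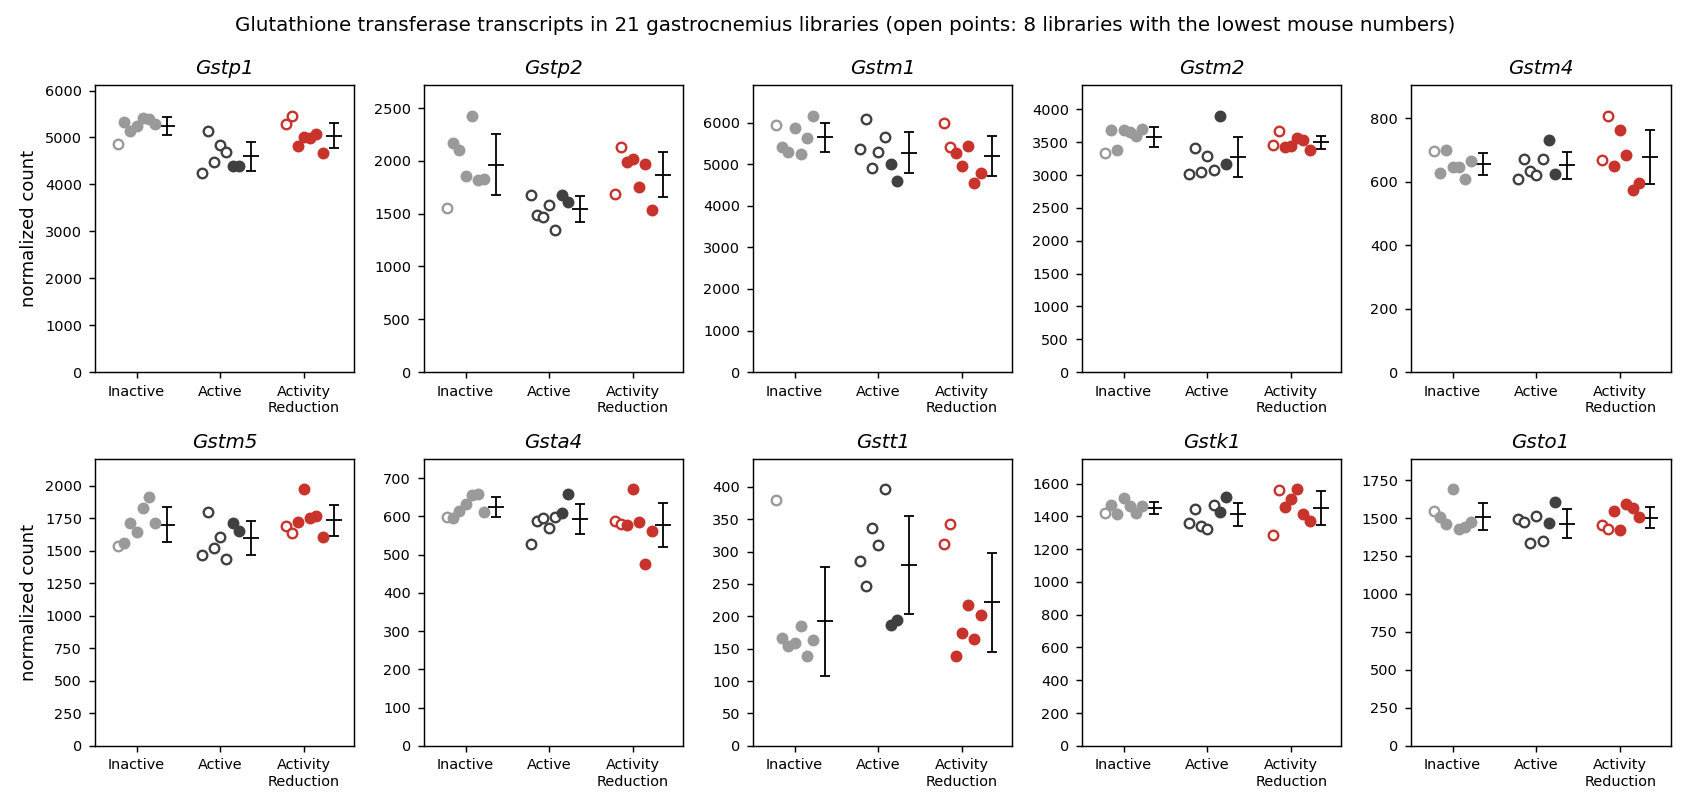
Normalized counts (vertical axes from 0) of the 10 genes in each of 21 libraries, by training group, with bars for the mean ± SD of 7 mice and open points for the 8 libraries with the lowest mouse numbers. Gstp1 and Gstp2 sit lower in the Active group, and Gstt1 is higher in the open points of all 3 groups.

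Gstp2 made up 27.2% ± 2.46 (SD, n = 7) of the summed Gstp1 and Gstp2 counts in Inactive mice, 25.2% ± 2.39 in Active mice and 27.0% ± 2.01 in Activity Reduction mice. Libraries ranged from 22.3% to 30.9%, and the groups overlapped. Within the 13 later libraries the means were 27.6%, 27.2% and 27.4%. Gstp3 held 0 to 26 counts per library and did not pass the filter. The pseudogene Gstp-ps, which shares long stretches with both genes, had log2 fold changes of −0.66 (SE 0.27) for Active against Inactive and 0.58 (SE 0.27) for Activity Reduction against Active, and did not pass edgeR's test (adjusted p = 0.406 and 0.366).

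The mu-class genes lie together on chromosome 3, where Gstm5 (chr3:107803137-107806005, plus strand), Gstm2 (chr3:107889004-107893785), Gstm1 (chr3:107919380-107925380) and Gstm4 (chr3:107947721-107952210, these 3 on the minus strand) span 149074 bases. Their enzymes conjugate a wide range of electrophiles, and GSTM2 is a form known from muscle. Gstm1 overlapped between all groups, with 5254 to 6174 normalized counts in Inactive (median 5628), 4599 to 6088 in Active (median 5304) and 4546 to 5987 in Activity Reduction mice (median 5278). Its log2 fold changes were −0.09 (SE 0.06), −0.12 (SE 0.06) and −0.02 (SE 0.06) in the order used for Gstp2, and the first became −0.19 (SE 0.06) with the mouse-number set as a covariate.

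Gstm2 ranged from 3331 to 3699 in Inactive mice (median 3652), from 3012 to 3903 in Active mice (median 3166) and from 3381 to 3665 in Activity Reduction mice (median 3459). Among the Active libraries, 5 of 7 were below every Inactive library, and Active replicate 6 was above all of them. The log2 fold change for Active against Inactive was −0.12 (SE 0.05). It was −0.03 within the 13 later libraries, where 1 of the 2 Active mice was replicate 6.

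Gstm4 and Gstm5 differed little between groups. Gstm4 ran from 608 to 701 in Inactive, 608 to 731 in Active and 574 to 808 in Activity Reduction mice, with log2 fold changes between 0.00 and 0.05. Gstm5 ran from 1536 to 1911, 1436 to 1801 and 1604 to 1972 in the same order, with log2 fold changes of −0.08 (SE 0.06), 0.03 (SE 0.06) and 0.12 (SE 0.06). The first was −0.02 (SE 0.06) with the mouse-number set as a covariate and −0.03 with the liver marker level, and the third was 0.07 (SE 0.06) with the set. An antisense gene, 4933431E20Rik, covers 14.6% of the exon bases of Gstm5, and the strand setting of the counting is not given in the sources used here. Of the 100-base stretches of Gstm2, 17.8% also occur in Gm6665.

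Gsta4 (chr9:78090056-78117763, plus strand) encodes an alpha-class enzyme that acts on 4-hydroxynonenal, a product of lipid peroxidation. It ran from 596 to 659 in Inactive (median 614), 529 to 657 in Active (median 595) and 476 to 670.3 in Activity Reduction mice (median 579). Of the 7 Activity Reduction libraries, 6 were below the lowest Inactive one and replicate 4 was above the highest, for a log2 fold change of −0.11 (SE 0.06).

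Gstk1 (chr6:42222830-42227386, plus strand) and Gsto1 (chr19:47842686-47853229, plus strand), whose omega-class product acts more as a thiol transferase and dehydroascorbate reductase, differed little between groups. Gstk1 ran from 1415 to 1512, 1326 to 1518 and 1284 to 1565 in Inactive, Active and Activity Reduction mice. Gsto1 ran from 1428 to 1688, 1338 to 1607 and 1421 to 1593. All 6 of their log2 fold changes lay between −0.04 and 0.04.

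Gstt1 (chr10:75618994-75634445, minus strand), a theta-class enzyme that also acts on small halogenated compounds, was the member that followed mouse number. It ran from 139 to 379 in Inactive mice (median 164), from 186 to 396 in Active mice (median 285) and from 139 to 342 in Activity Reduction mice (median 201). The 8 libraries with the lowest mouse numbers held 247 to 396 normalized counts and the 13 later ones 139 to 218, with no overlap. Inactive replicate 1, the sole Inactive mouse among those 8, held 379.

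Its log2 fold change for Active against Inactive was 0.55 (SE 0.24) over all libraries and 0.06 (SE 0.12) with the mouse-number set as a covariate. For Activity Reduction against Active it was −0.34 (SE 0.23) and became 0.03 (SE 0.12). Activity Reduction against Inactive gave 0.21 (SE 0.24) and, with the covariate, 0.09 (SE 0.11). With the mean log2 level of the liver markers as a covariate, Active against Inactive was 0.13. Leaving out Inactive replicate 1 gave 0.80 for Active against Inactive and 0.47 for Activity Reduction against Inactive. The latter was 0.07 without Activity Reduction replicate 2 and 0.10 without Activity Reduction replicate 1.

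**Figure D3:**
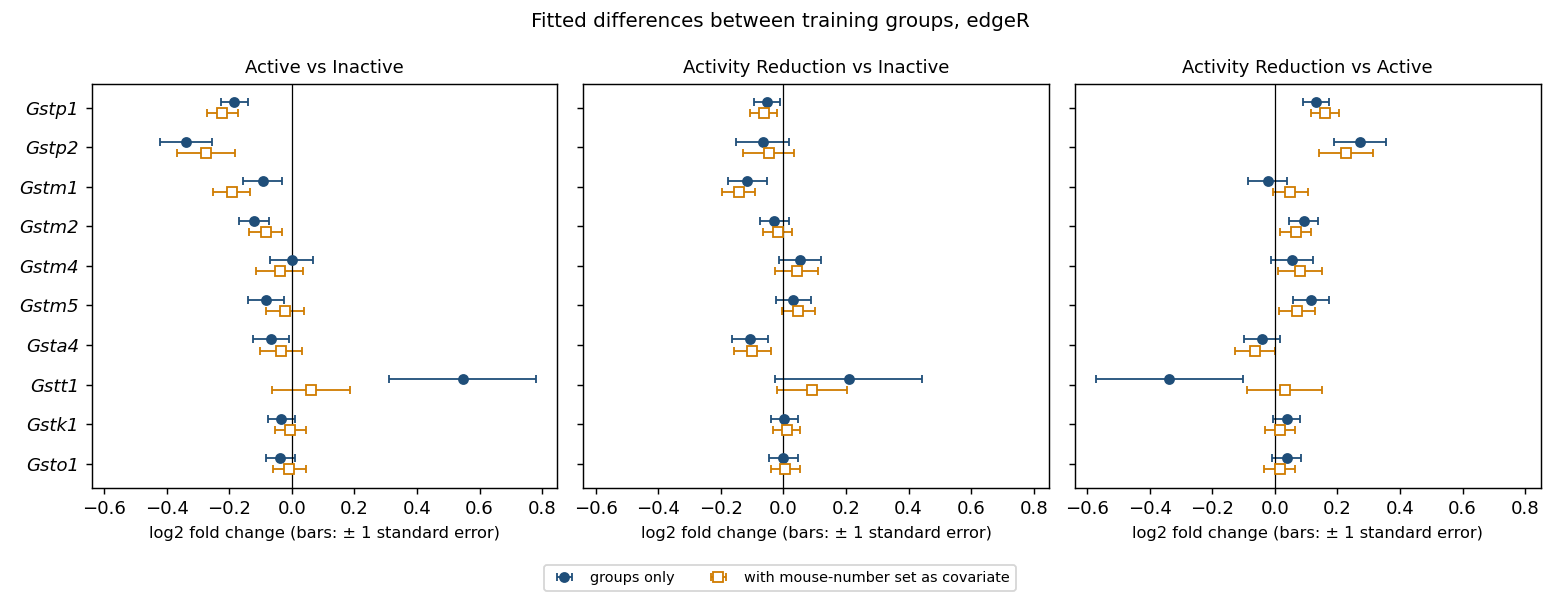
Fitted log2 fold changes of the 10 genes in the 3 comparisons (points, bars ± 1 SE), from the groups alone (filled) and with the mouse-number set as a covariate (open). Gstp1 and Gstp2 keep values of −0.22 and −0.27 for Active against Inactive with the covariate, and Gstt1 moves from 0.55 to 0.06.

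No member passed an adjusted p-value of 0.05 in any of the 3 comparisons with edgeR's quasi-likelihood test. For Active against Inactive, 0 of 10 members were called and 0% of all genes tested. At an unadjusted p-value under 0.05, 4 of 10 (Gstp1, Gstp2 and Gstm2 lower, Gstt1 higher) stood beside 10.9% of all genes. DESeq2 called 2 of 10, Gstp1 and Gstp2, beside 0.939% of the genes to which it gave an adjusted p-value.

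For Activity Reduction against Inactive, 0 of 10 members were called by edgeR (0.0124% of all genes) and 0 at an unadjusted p-value under 0.05 (7.73%). DESeq2 gave an adjusted p-value to 3 of the 10, Gstp1, Gstm1 and Gstm2, and called 0 of these 3 (1.89% of the 2587 genes with one). For Activity Reduction against Active, 0 of 10 were called (0% of all genes), 2 at an unadjusted p-value under 0.05, Gstp1 and Gstp2, both higher (13.3%), and 0 by DESeq2 (1.29%). Since these values chose the members, the counts describe them and are not evidence that they differ from other genes. Over the 10, the median log2 fold change was −0.07, −0.01 and 0.05 in the 3 comparisons, and over all genes tested it was 0.01, 0.01 and 0.00.

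Markers of muscle and of other cells were counted in the same comparisons, and 0 passed edgeR's adjusted test. For Active against Inactive, 3 of 6 endothelial, 3 of 7 macrophage and 2 of 7 fibroblast markers had a higher fitted value at an unadjusted p-value under 0.05. So had 2 of 7 muscle, 6 of 24 liver, 1 of 4 blood cell, 0 of 7 adipocyte and 0 of 6 Schwann cell markers. Of all genes, 10.9% passed in either direction, and 997 of 16129 were higher. For Activity Reduction against Active, 3 of 6 endothelial, 3 of 7 macrophage and 6 of 7 fibroblast markers had a lower value at that p-value. None of the muscle, liver, adipocyte, Schwann cell and blood cell markers had, beside 13.3% in either direction and 1038 of 16129 lower. For Activity Reduction against Inactive, 2 of 7 muscle, 2 of 4 blood cell and 1 of 6 Schwann cell markers had a higher value, beside 7.73% in either direction. No marker of the other lists passed there. Summed macrophage markers were 20.1 to 32.7 CPM in Inactive, 23.7 to 35.3 in Active and 13.6 to 29.4 in Activity Reduction mice. Endothelial markers were 174 to 224, 189 to 246 and 167 to 195 CPM, and fibroblast markers 344 to 625.4, 480.2 to 815 and 373 to 579 CPM. No marker of these lists was at 0 in all libraries. Their part in the Gstp1 and Gstp2 values was not tested.

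The mouse-number sets were not used to choose the members and were compared within groups. The place of their division was chosen with liver transcripts of these libraries known. The p-values of this contrast are therefore not those of a division fixed in advance. Gstt1 was higher in the 8 libraries with the lowest numbers, with a log2 difference of 0.91 (SE 0.10, adjusted p = 4.15e-07, edgeR's quasi-likelihood test), and was the 1 member of 10 called, where 4.58% of all genes were. Gstm1 missed the threshold at 0.17 (SE 0.05, adjusted p = 0.0542 in the same edgeR test), and DESeq2 called it. Gstp1 and Gstp2 were not called, with log2 differences of 0.06 (SE 0.04) and −0.11 (SE 0.08).

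Outside the 10, 6 of 13 other glutathione transferases tested were higher in those 8 libraries and 0 lower. Gsta3, an alpha-class enzyme, held 394 to 1079 normalized counts against 91.7 to 194, a log2 difference of 2.65 (SE 0.16). The microsomal Mgst1 held 801 to 1591 against 359 to 564, a log2 difference of 1.46 (SE 0.12), and Gstz1, which takes part in tyrosine breakdown, differed by 0.32 (SE 0.05). The remaining 3 were Gstm3 (2.86, SE 0.31), Gstm6 (1.52, SE 0.27) and Gstt3 (0.62, SE 0.11). Adjusted p-values of the 6 were at most 0.000415 (edgeR). Gclc, for glutathione synthesis, Gpx1, a peroxidase, and the conjugate exporters Abcc2 and Abcc3 were also higher, by 0.23 (SE 0.06), 0.53 (SE 0.08), 2.71 (SE 0.18) and 2.13 (SE 0.21). All 24 liver markers, on which the division rests, were higher in the same libraries. The part of liver RNA in the Gstt1 value was not tested.

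**Figure D4:**
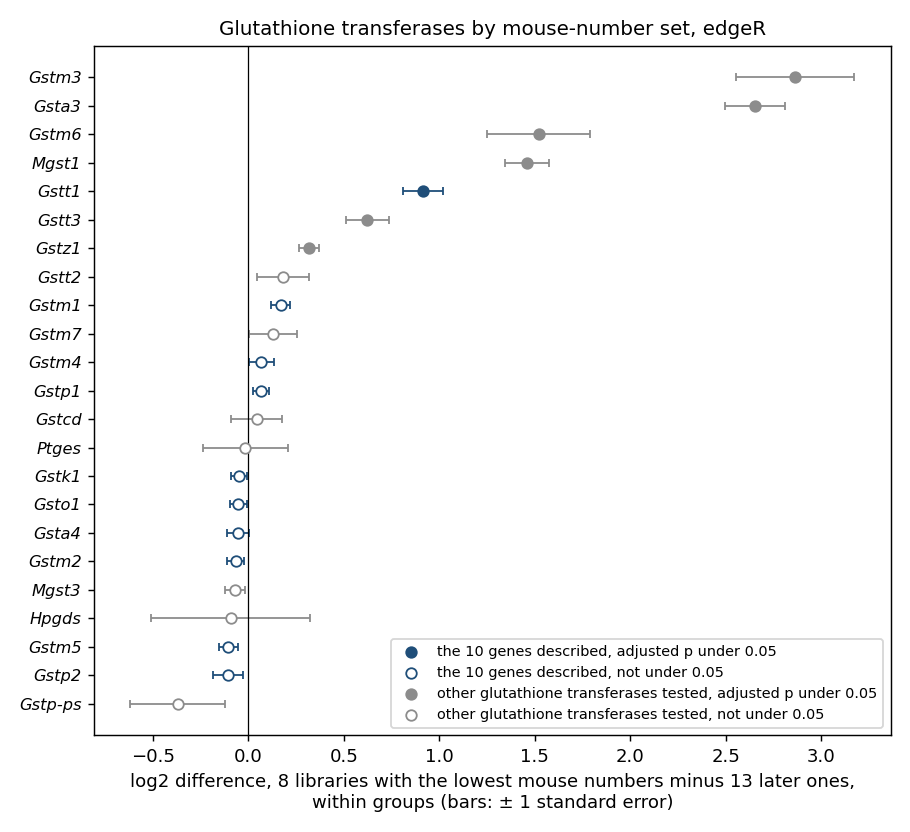
Log2 difference between the 8 libraries with the lowest mouse numbers and the 13 later ones, within groups, for the 10 genes and 13 other glutathione transferases (points, bars ± 1 SE, filled where the adjusted p of edgeR's quasi-likelihood test was under 0.05). Gstt1, at 0.91, is the filled member, and Gstm3, at 2.86, lies farthest right.

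Of the other genes of the pathway, 50 were tested in 5 lists: other glutathione transferases (13), glutathione synthesis and breakdown (12), peroxidases, reductase and glutaredoxins (10), conjugate export (5) and NRF2 with its targets (10). None of the 50 passed edgeR's adjusted test in a training comparison. An unadjusted p-value under 0.05 was given to 7, 4 and 8 of them for Active against Inactive, Activity Reduction against Inactive and Activity Reduction against Active, beside 10.9%, 7.73% and 13.3% of all genes. DESeq2 called 1 of 43, 1 of 11 and 3 of 47 with an adjusted p-value.

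Glrx3, a glutaredoxin that handles iron-sulfur clusters, was the lowest in p for Active against Inactive (log2 fold change −0.14, SE 0.03, adjusted p = 0.159 in edgeR) and for Activity Reduction against Active (0.18, SE 0.03, adjusted p = 0.0580 in edgeR). DESeq2 called it in both. Mgst3, a microsomal transferase and peroxidase, had log2 fold changes of 0.23 (SE 0.05, adjusted p = 0.199) against Inactive and 0.24 (SE 0.05, adjusted p = 0.0900) against Active in the Activity Reduction group with edgeR. DESeq2 on the 3 groups called both, and DESeq2 on the 2 groups compared did not call it against Inactive. Gpx4, which reduces lipid hydroperoxides in membranes, had 0.18 (SE 0.05, adjusted p = 0.126 in edgeR) for Activity Reduction against Active and was called by DESeq2.

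Also named by the smallest p-values were Chac1, which degrades glutathione (−0.67, SE 0.23), and G6pdx, which supplies NADPH (0.41, SE 0.14), for Active against Inactive. Pgd, of the same NADPH route, had 0.16 (SE 0.06) and Keap1 0.10 (SE 0.04) for Activity Reduction against Inactive. Adjusted p-values of these 4 lay between 0.329 and 0.612 (edgeR). Nfe2l2, which encodes NRF2, and the other NRF2 targets were not called.

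Between mice of one group, 9 of the 10 members varied less than the median gene. The biological coefficient of variation was lowest for Gstp1 at 0.0628, the 7.14th percentile of all genes tested, and 0.113 for Gstp2, the 41.7th percentile. It was 0.306 for Gstt1, the 79.7th percentile, and the median over all 16129 genes was 0.138. These values come from the fit of the groups alone, so that of Gstt1 includes its difference between the mouse-number sets. Mean Gstt1 was 326 ± 48.4 normalized counts (SD, n = 8) in the set with the lowest numbers and 172 ± 23.6 (n = 13) in the later set.

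With the mouse-number sets left in, members did not rise and fall together from mouse to mouse beyond what the test could call. After removal of group means, Gstp1 and Gstp2 had a Pearson r of 0.219 (permutation p = 0.316, adjusted over 45 pairs 0.592) and a Spearman rho of 0.130 (permutation p = 0.575, adjusted 0.700) over 21 libraries. Without the 2 libraries farthest from the median, r was 0.354. It was 0.473 within the 13 later libraries and −0.140 within the 8 others. With the means of each group and mouse-number set removed, it was 0.124. Of the 45 pairs of members, 30 had a positive r, with a median of 0.131. At an unadjusted permutation p under 0.05 there were 3 pairs, and 0 after adjustment. With set means also removed, r moved in either direction. It went from 0.350 to 0.648 for Gstp1 and Gstm5, and from 0.455 to −0.208 for Gstm1 and Gstt1. No adjusted test over the 45 pairs was run that way.

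The r farthest from 0 among the 45 pairs was negative, between Gstm5 and Gstt1 (r = −0.590, permutation p = 0.00680, adjusted 0.306, rho = −0.621, permutation p = 0.00427, adjusted 0.192). Without the 2 farthest libraries it was −0.544, and it was −0.220 within the 13 and −0.785 within the 8 libraries. With the means of each group and mouse-number set removed, it was −0.457. All values of a library share its size factor.

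Over the 21 libraries, group differences included, the genes most like Gstp1 by Pearson r were Anapc5 (0.84), Ddrgk1 (0.84), Hsp90ab1 (0.83), 2310001H17Rik (0.81) and Gabarap (0.81). Those most like Gstp2 were Prob1 (0.81), Ost4 (0.81), Usp19 (0.80), Wdr5 (0.80) and 5730409E04Rik (0.79). No gene was in both lists.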

How the data were processed

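The submitters' processing notes name fastp for trimming, STAR for alignment to GRCm39 and featureCounts for counting by gene (versions not given in the sources used here). The values the authors deposited are raw counts per gene and library. A second deposited table held the same 857913 values, and no sample column was left unused (0). Every library is a separate mouse, so p-values rest on the spread between mice. In the training comparisons that spread includes differences between the mouse-number sets, unless the set was a covariate.

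Groups came from the sample titles, and the set of mouse numbers from the sample descriptions. Counts were divided by DESeq2 size factors for display. Tests used edgeR 4.0.16 (R 4.3.3): filterByExpr, TMM, and 1 quasi-likelihood model of the 21 libraries, with Benjamini-Hochberg adjustment over 16129 genes and a threshold of 0.05. The mouse-number contrast added the set as a term. DESeq2 1.42.0, other normalizations, filters, covariates and left-out libraries were alternatives. DESeq2 on the 2 groups compared was added after seeing the data. Correlations used log2(normalized count + 1) and 100000 permutations within groups. The model fits and the correlation test were tried on simulated data, and the sequence comparisons were not. Sequences came from GRCm39, GENCODE M39 and RefSeq GRCm38.p6. The gene coordinates are those of GENCODE M39 on GRCm39.

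The members and lists were chosen with earlier results of these data known. Besides the members, genes were named if called in a contrast, if among the 3 smallest p-values of their comparison in the pathway lists, or if among the 5 highest correlations with Gstp1 or Gstp2. Gstp3 and Gstp-ps were added as neighbors in sequence.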

Additional observations from a re-analysis of the deposited data

Results flagged for a closer look

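Gstt1 in Inactive replicate 1 held 379 normalized counts, while the other 6 Inactive libraries held 139 to 184, so that the gap to its nearest neighbor was 0.81 of the range of the group by Dixon's ratio. This mouse is the Inactive one among the 8 with the lowest mouse numbers. Of the 30 groups of 7 examined (10 genes in 3 groups), this was the 1 set apart in this way, and chance sets apart about 1 in 20.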

How the results depend on the processing

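Of 750 values of member fold changes under alternatives, 721 stayed within the spread between mice, 18 moved further and 11 changed sign beyond it. Within the 13 later libraries, log2 fold changes for Active against Inactive turned to 0.0690 for Gstm4, 0.0169 for Gsta4, 0.0180 for Gstk1 and 0.0368 for Gsto1, and for Activity Reduction against Active to 0.0502 for Gstm1, −0.0322 for Gstm2, −0.0603 for Gstm4, −0.0139 for Gstk1 and −0.0131 for Gsto1. With the mouse-number set as covariate, the latter comparison gave 0.0497 for Gstm1 and 0.0312 for Gstt1. Gstp1 and Gstp2 kept their direction for Active against Inactive in all 11 settings (−0.27 to −0.18 and −0.35 to −0.27) and without any 1 library. DESeq2 on the 3 groups called 2 members for Active against Inactive and 2 by mouse number (Gstm1 and Gstt1), and 1, 1 and 3 other glutathione genes in the 3 training comparisons. DESeq2 on the 2 groups compared called 2 members and 1 other gene for Active against Inactive, 0 and 0 for Activity Reduction against Inactive, and 1 member (Gstp2) and 3 other genes for Activity Reduction against Active. For DESeq2 on the 2 groups compared, DESeq2 by mouse number and the fits below, the share of all genes called was not counted. Those counts therefore do not show whether the members differ from other genes. The cause of the difference between tools was not tested. Leaving out 1 library gave 0 to 1 other glutathione genes for Activity Reduction against Active (1 without Activity Reduction replicate 7) and 1 to 2 members by mouse number (2, with Gstm1, without Active replicate 3, Activity Reduction replicate 5 or Inactive replicate 7). Replicate numbers were not taken as pairs. Correlations of deviations between mice of the same number ran from −0.32 to 0.69, with 10 of 21 over 0.1. They were 0.54 to 0.69 for replicate 1, whose mice are all in the set with the lowest mouse numbers. With the replicate block 0 members were called in each training comparison and 1 by mouse number. Gstt1 has the fewest counts of the 10 and so the largest counting error relative to its level. Its values also differed between the mouse-number sets without overlap, at 247 to 396 and 139 to 218 normalized counts.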
